A study of Mus musculus with 8 samples.

Results

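Transcripts that mark T cells and intraepithelial lymphocytes, the T cells that sit between the epithelial cells of the gut, were followed in bulk RNA sequencing of jejunal mucosa. The 10 markers were Cd3e, Cd3d, Cd3g, Cd4, Cd8a, Cd8b1, Itgae, Gzma, Gzmb and Ccl5, chosen by symbol and matched to 10 of the 56980 gene identifiers that were counted. All 10 were among the 15986 genes that held at least 10 counts in at least 4 libraries and were tested. Adipoq-F2-KO mice, called knockouts here, lack FFA2, a receptor for short-chain fatty acids encoded by Ffar2, in adipocytes, since their floxed alleles are recombined by a Cre driven from the adiponectin promoter. The floxed controls (FFA2 fl/fl) were littermates that carried the floxed alleles without Cre. All mice were male, were moved from chow to a Western diet with 10% fructooligosaccharides at 12 weeks of age, were held at thermoneutrality and were sampled after 2 weeks. Each genotype had 4 libraries of scraped mucosa, a mixed tissue, and nothing in the labels says whether each library came from 1 mouse. P-values therefore measure the spread between these libraries.

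T cells recognise antigen through a receptor whose variable chains are paired with the invariant CD3 chains, and the coreceptors CD4 and CD8 bind MHC class II and class I. In the small intestine most intraepithelial lymphocytes carry CD8, often as a pair of alpha chains without the beta chain, and many carry a gamma delta receptor. They hold to E-cadherin of the epithelium through CD103, whose alpha chain is the product of Itgae, and they store granzymes ready for release. CD4 T cells lie mainly in the lamina propria and in lymphoid follicles, and Cd4 is also transcribed in some macrophages and dendritic cells.

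Total counts ran from 6007654 to 21712776 per library. The libraries of floxed control 3 and of knockouts 3 and 4 held fewer than 10000000 counts and are called shallow, and the other 5 are called deep. Floxed control 3 also stood apart in muscle content, since the summed normalized counts of 10 smooth muscle genes were 30138 there against 3773 to 12359 in the other 7 libraries. The summed counts of 10 enterocyte genes lay between 593459 and 683366 in all 8 libraries. Ffar2 itself had 2 to 18 raw counts, which do not test a deletion directed at adipocytes.

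None of the T cell markers differed between genotypes once all tested genes were taken into account, and Cd4 alone passed before that adjustment. Counts were normalized by the size factor of each library and compared with DESeq2, a model of counts fitted over all tested genes, whose p-values were adjusted over all of them by Benjamini-Hochberg. Of the 10 markers, 0 had an adjusted p below 0.05, where 6 of all tested genes (0.0375%) did. At an unadjusted p below 0.05, called the unadjusted threshold here, there was 1 marker, Cd4, against 3.03% of all tested genes. In edgeR's quasi-likelihood test 0 markers passed the adjusted threshold (0.0125% of all genes) and the same 1 passed the unadjusted one (3.48% of all genes). The log2 fold change, Adipoq-F2-KO over floxed controls, was above 0 for 8 of the 10 (48.5% of all genes) and its median was 0.12, against −0.01 over all tested genes. Leaving out single libraries moved that count between 5 (without control 1 or knockout 1) and 10 (without control 3 or control 4) and the median between 0.01 and 0.35. In bulk tissue, fewer cells of a type and less RNA per cell cannot be told apart. For 9 of the 10 markers the genotype difference was within the spread between libraries.

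**Figure D1:**
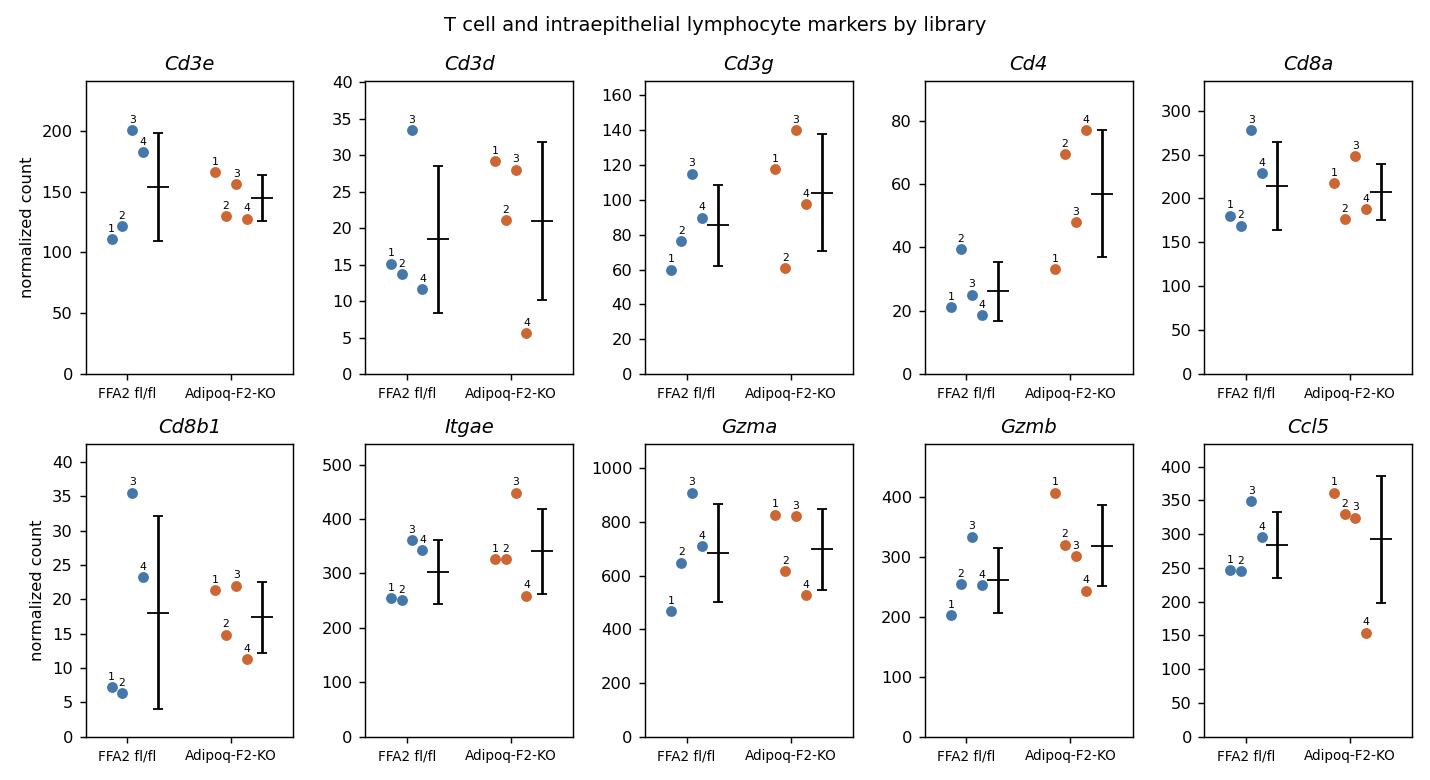
Normalized counts of the 10 markers in each library (vertical axes from 0), with floxed controls in blue and Adipoq-F2-KO in orange, numbered by replicate, and the mean with its SD in black. The groups overlap for all 10 genes, and Cd4, at 26.1 against 56.9, shows the widest gap between means as a fold.

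The CD3 chains, which carry the receptor's signal into the cell, were measured at 3 neighbouring genes on chromosome 9 (GRCm38). Cd3e (44998740 to 45009627, minus strand) had normalized counts of 111, 122, 201 and 183 in floxed controls 1 to 4 and of 166, 130, 156 and 128 in knockouts 1 to 4. The groups overlapped, with all 4 knockout values inside the range of the controls. The means were 154 ± 44.4 and 145 ± 19.0 (SD, n = 4 each), and the log2 fold change was −0.07 (standard error 0.23, 95% interval −0.52 to 0.39; DESeq2 adjusted p = 0.9998). Cd3e overlaps the gene Gm48719 on the opposite strand, which held 51 counts in all, so its level is uncertain to that extent.

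Cd3g (44969572 to 44980431, minus strand) had normalized counts of 60.0, 76.4, 115 and 89.8 in controls and of 118, 60.8, 140 and 97.8 in knockouts. The lowest values, near 60, came from 1 library of each genotype, and the log2 fold change was 0.29 (standard error 0.30, 95% interval −0.29 to 0.88; DESeq2 adjusted p = 0.9998). Cd3d (44981786 to 44987339, plus strand) was scarce, with raw counts of 25, 26, 16 and 15 in controls and 37, 34, 14 and 3 in knockouts. Its normalized counts were 15.1, 13.7, 33.5 and 11.6 against 29.2, 21.1, 28.0 and 5.64. Both the lowest value (knockout 4) and the highest (control 3) came from shallow libraries. The log2 fold change of 0.29 had a standard error of 0.52 and an interval of −0.73 to 1.31 (DESeq2 adjusted p = 0.9998), so a difference of about that size was not detectable. In the 5 deep libraries alone it was 0.88 and did not pass the unadjusted threshold. The starts of Cd3g and Cd3d lie 1355 bases apart and point away from each other.

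Cd4 (chromosome 6, 124864692 to 124888221, minus strand), the coreceptor of helper and regulatory T cells, stood apart from the other 9. Controls 1 to 4 held 35, 75, 12 and 24 raw counts of Cd4, and knockouts 1 to 4 held 42, 112, 24 and 41. Its normalized counts were 21.2, 39.5, 25.1 and 18.6 in controls against 33.2, 69.4, 48.1 and 77.1 in knockouts. In 3 of 4 knockouts Cd4 exceeded every control, and the groups overlapped because knockout 1 lay below control 2. The means were 26.1 ± 9.35 and 56.9 ± 20.1 (SD, n = 4 each). The fold was 2.15 (95% interval 1.28 to 3.60), or 1.10 on the log2 scale with a standard error of 0.38 (adjusted p = 0.976 in DESeq2). Cd4 did not pass the adjustment over all genes in DESeq2, nor in edgeR (adjusted p = 0.999), and passed the unadjusted threshold in both. The log2 fold change of Cd4 lay between 0.94 and 1.42 under 16 other settings (other tools, filters and scalings, left-out libraries), passed unadjusted in 15 of them, all but the deep libraries, and had an adjusted p of 0.206 or more. Without control 2, or without knockout 1, the groups of Cd4 no longer overlapped, as held for 4.18% of all genes without control 2 and 4.44% without knockout 1.

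Markers of B cells and of macrophages and dendritic cells were compared with Cd4 library by library, and no correlation was computed. The summed normalized counts of 10 B cell genes were 42.4, 507, 142 and 28.6 in controls 1 to 4 against 193, 735, 216 and 525 in knockouts 1 to 4. The 3 controls with the lowest Cd4 were those with the lowest B cell sums, and knockouts 2 and 4, with the highest Cd4, had the highest B cell sums. Other libraries did not follow this order. Control 2 and knockout 4 had similar B cell sums (507 and 525), with Cd4 at 39.5 and 77.1. Knockout 3, with a B cell sum of 216, had Cd4 at 48.1, above control 2. All 9 tested B cell genes had a log2 fold change above 0 (48.5% of all genes), with a median of 1.15, and 0 passed even the unadjusted threshold. For macrophage and dendritic genes the sums were 394, 641, 569 and 296 in controls 1 to 4 against 482, 671, 685 and 816 in knockouts 1 to 4, which overlapped, and 12 of 12 tested genes had a log2 fold change above 0, with a median of 0.46. Of the defining genes in these lists, none was at 0 in every library.

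When the B cell score entered the model as a covariate, a fit chosen after the data were seen, the log2 fold change of Cd4 was 0.53 (DESeq2 adjusted p = 0.9999). With the macrophage and dendritic score as a covariate it was 0.49 (DESeq2 adjusted p = 0.999). In both, the count of markers with an unadjusted p below 0.05 fell from 1 to 0, where 2.56% and 3.83% of all genes passed. Both sums overlapped between the genotypes. Since the tested genes behind both scores had log2 fold changes above 0, these fits do not separate the scores from genotype. The part of these cells in the Cd4 result was not tested. With the smooth muscle score in the model the value for Cd4 was 0.97 (DESeq2 adjusted p = 0.468).

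The CD8 genes lie beside each other on chromosome 6. Cd8a (71373427 to 71379173, plus strand), which encodes the alpha chain, had normalized counts of 181, 169, 278 and 229 in controls and 217, 177, 248 and 188 in knockouts. The knockout values lay inside the range of the controls. The means were 214 ± 49.9 and 208 ± 32.1 (SD, n = 4 each), and the log2 fold change was −0.03 (standard error 0.20, 95% interval −0.43 to 0.36; DESeq2 adjusted p = 0.9998).

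Cd8b1 (71322788 to 71337494, plus strand), which encodes the beta chain found on conventional CD8 T cells, had only 6 to 30 raw counts. Its normalized counts were 7.27, 6.32, 35.5 and 23.2 in controls against 21.3, 14.9, 22.0 and 11.3 in knockouts. Controls 1 and 2 were the lowest of all libraries and controls 3 and 4 the highest, so the spread lay within 1 genotype. The means were 18.1 and 17.4. The fitted log2 fold change was 0.03 with an interval of −1.14 to 1.21 (DESeq2 adjusted p = 0.9998), opposite in sign to the difference of the means.

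Per kilobase of exon, the normalized level of Cd8a was 58.0 ± 10.7 and that of Cd8b1 was 12.0 ± 6.59 (SD, n = 8 libraries). The within-library ratio of Cd8b1 to Cd8a counts, which does not depend on the scaling of libraries, had a geometric mean of 0.0761. It was 0.0419, 0.0389, 0.131 and 0.103 in controls and 0.0998, 0.0858, 0.0924 and 0.0647 in knockouts. The 4 knockout ratios lay inside the range of the controls, and the log2 difference was 0.31 (exact permutation test, two-sided, p = 0.514, adjusted over 6 ratios 0.617).

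The ratio of Cd4 to Cd8a counts was 0.119, 0.235, 0.0936 and 0.0826 in controls and 0.154, 0.394, 0.197 and 0.413 in knockouts. Knockouts 2 and 4 were above all controls, and the other 2 were below control 2. The geometric mean was 0.121 in controls and 0.265 in knockouts, a fold of 2.19, and the difference did not pass (exact permutation test, two-sided, p = 0.0857, adjusted over 6 ratios 0.343). With 4 libraries against 4 the smallest p this test can give is 0.0286.

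**Figure D2:**
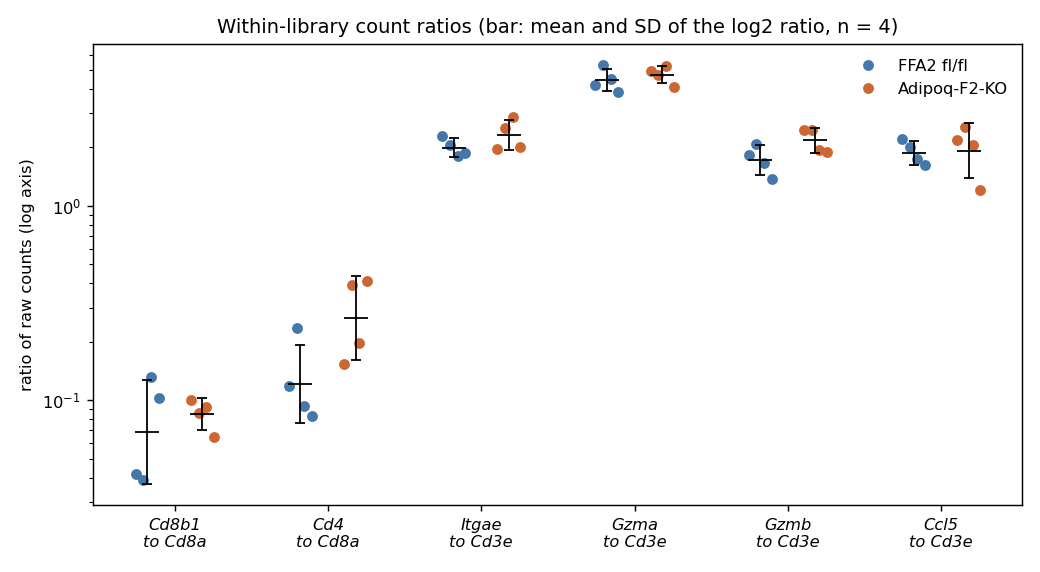
Within-library ratios of raw counts for 6 pairs of markers on a log axis, with floxed controls in blue and Adipoq-F2-KO in orange, and bars for the mean and SD of the log2 ratio (n = 4). The genotypes overlap for all 6 ratios, and the ratio of Cd4 to Cd8a, 0.121 against 0.265, shows the widest gap as a fold.

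Itgae (chromosome 11, 73090583 to 73147446, plus strand) encodes the integrin chain that holds lymphocytes in the epithelium. Its normalized counts were 255, 251, 362 and 343 in controls against 327, 327, 448 and 259 in knockouts. The highest value came from knockout 3 and the other 3 lay among the controls. The means were 303 ± 57.9 and 340 ± 78.8 (SD, n = 4 each), and the log2 fold change was 0.18 (standard error 0.20, 95% interval −0.22 to 0.57; DESeq2 adjusted p = 0.9998). Per Cd3e count, Itgae was 2.00 in controls and 2.31 in knockouts as geometric means (exact permutation test, two-sided, p = 0.229, adjusted 0.457).

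The granzymes are serine proteases of cytotoxic granules. Gzma (chromosome 13, 113093825 to 113100981, minus strand) had normalized counts of 468, 649, 910 and 709 in controls and 827, 616, 821 and 528 in knockouts. The lowest and the highest libraries were both controls, and the log2 fold change was 0.04 (standard error 0.22, 95% interval −0.39 to 0.46; DESeq2 adjusted p = 0.9998). The ratio of Gzma to Cd3e lay between 3.88 and 5.32 in the 8 libraries, with a log2 difference of 0.09 between genotypes (exact permutation test, two-sided, p = 0.486, adjusted 0.617).

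Gzmb (chromosome 14, 56258838 to 56262260, minus strand) had normalized counts of 203, 255, 335 and 253 in controls and 408, 321, 302 and 244 in knockouts. Only knockout 1 lay above all controls. The means were 261 ± 54.4 and 319.0 ± 67.8 (SD, n = 4 each), and the log2 fold change was 0.31 (standard error 0.20, 95% interval −0.09 to 0.71; DESeq2 adjusted p = 0.9998). In the 5 deep libraries alone (3 controls, 2 knockouts) it was 0.62 (DESeq2 adjusted p = 0.158, the lowest over all settings for this gene), and there it passed the unadjusted threshold. It also did so without control 3 (as did 8.29% of all genes) and without knockout 4 (2.3%). Without knockout 1 the log2 fold change of Gzmb was 0.17, short of that threshold. The ratio of Gzmb to Cd3e was 1.83, 2.09, 1.66 and 1.38 in controls and 2.46, 2.47, 1.93 and 1.91 in knockouts. Knockouts 1 and 2 were above all controls (exact permutation test, two-sided, p = 0.114, adjusted 0.343).

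The promoters of both granzymes are shown because Gzma and Gzmb were among the 3 markers with the highest level per kilobase and because, of the markers with a promoter on record, they alone held a motif of RUNX factors, of which Runx3 guides the CD8 lineage. The sequences are the 250 bases before the RefSeq transcription start (GRCm38.p6), read 5′ to 3′ on the gene's strand, with the motif TGTGGT, or ACCACA where it lies on the other strand, in capitals.

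Gzma, chr13:113100982-113101231, minus strand: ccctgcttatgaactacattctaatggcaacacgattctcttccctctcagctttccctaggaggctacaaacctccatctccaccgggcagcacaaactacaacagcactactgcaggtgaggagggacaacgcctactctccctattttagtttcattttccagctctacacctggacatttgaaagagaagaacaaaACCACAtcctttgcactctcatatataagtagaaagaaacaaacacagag

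Gzmb, chr14:56262335-56262584, minus strand: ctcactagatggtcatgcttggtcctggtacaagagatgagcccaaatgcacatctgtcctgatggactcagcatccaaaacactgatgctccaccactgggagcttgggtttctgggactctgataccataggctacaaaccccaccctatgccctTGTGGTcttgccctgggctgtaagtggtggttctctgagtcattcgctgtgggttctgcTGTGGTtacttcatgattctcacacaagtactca

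The Gzma window held 1 match, beginning 50 bases before the start, and the Gzmb window held 2, beginning 93 and 34 bases before it. The windows of 6 markers were available (Cd3e, Cd3d, Cd3g, Cd8a, Gzma and Gzmb), and 2 held the motif, searched on both strands, against 14.05% of 32851 mouse promoter windows of the same length. The matches describe letters and not binding. Runx3 itself had a normalized count of 99.2 ± 10.8 in controls and 125 ± 22.8 in knockouts (SD, n = 4 each) and a log2 fold change of 0.30 (DESeq2 adjusted p = 0.9998). It was named after its values were seen, for the motif. The RefSeq start of Gzmb lies upstream of the GENCODE gene.

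Ccl5 (chromosome 11, 83525778 to 83530518, minus strand) encodes a chemokine that cytotoxic and memory T cells store and release. Its normalized counts were 247, 245, 349 and 296 in controls against 362, 330, 324 and 154 in knockouts. The knockouts held both the highest value (library 1) and the lowest (library 4). The means were 284 ± 49.3 and 292 ± 93.7 (SD, n = 4 each), and the log2 fold change was 0.06 (standard error 0.25, 95% interval −0.43 to 0.54; DESeq2 adjusted p = 0.9998). In the 5 deep libraries alone it was 0.40 (DESeq2 adjusted p = 0.506, the lowest over all settings) and passed unadjusted. In the deep libraries 5.7% of all genes had an unadjusted p below 0.05. There, Cd3d, Gzmb and Ccl5 did not overlap between genotypes, as held for 23.6% of all genes. Relative to Cd3e, Ccl5 differed by 0.03 on the log2 scale (exact permutation test, two-sided, p = 0.914, adjusted 0.914).

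Compared per kilobase of exon, Gzma had the highest level of the 10, at 687 ± 154 normalized counts (SD, n = 8 libraries). It was followed by Ccl5 (300.3 ± 72.3), Gzmb (202 ± 45.1), Itgae (70.2 ± 14.6), Cd8a (58.0 ± 10.7), Cd3e (36.6 ± 7.84), Cd3g (29.0 ± 8.75), Cd8b1 (12.0 ± 6.59), Cd3d (10.9 ± 5.39) and Cd4 (10.3 ± 5.44). Between Gzma and Ccl5, and between Gzmb and Itgae, the ranges over libraries did not overlap. Itgae was above Cd8a, Cd8a above Cd3e, and Cd3g above Cd8b1 in 8 of 8 libraries although their ranges overlapped. Ccl5 was above Gzmb, and Cd3e above Cd3g, in 7 of 8. The levels of Cd8b1, Cd3d and Cd4 did not order beyond their spread. Exon lengths were those of all annotated exons of a gene merged. Whether the order holds for the lengths of the main transcripts was not tested.

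**Figure D3:**
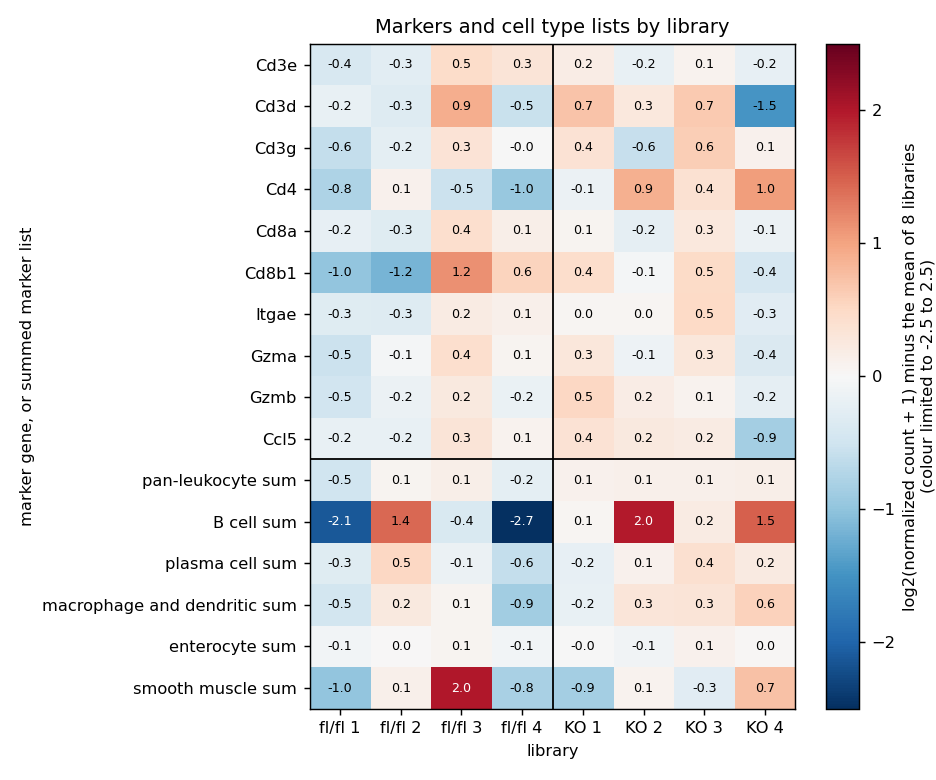
Each cell gives log2(normalized count + 1) of a marker, or of the summed counts of a cell type list, minus its mean over the 8 libraries, with red above and blue below the mean (the colour scale ends before the most extreme cell). Cd3e, Cd3d, Cd8a, Cd8b1 and Gzma are highest in floxed control 3, with Cd8b1 varying 5.62-fold and Cd8a 1.64-fold over the libraries, while the B cell sum varies 25.7-fold. The libraries with the highest Cd4, knockouts 2 and 4, have the highest B cell sums, but knockout 3 exceeds control 2 in Cd4 with a lower B cell sum.

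Most of the markers were high, or low, in the same libraries. Their summed normalized counts were 1568, 1827, 2643 and 2155 in controls against 2508, 2066, 2539 and 1694 in knockouts, a range of 1.69-fold. The same range was 25.7-fold for the B cell sum, 7.99-fold for smooth muscle and 1.15-fold for enterocytes. Controls 1 and 2 and knockout 4 had the lowest sums, and control 3 and knockout 3, both shallow, the highest. Control 3, with the highest smooth muscle sum, also had the highest Cd3e, Cd3d, Cd8a, Cd8b1 and Gzma of the 8 libraries. The part of muscle content and depth in these levels was not tested.

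Across the 8 libraries, 9 markers followed the mean profile of the other members, with Pearson's r from 0.68 (Ccl5) to 0.93 (Gzma), whereas r was −0.22 for Cd4. These values are a description over 8 libraries that share depth and tissue make-up. The coefficients of variation over the 8 libraries were 18.5% for Cd8a, 20.9% for Itgae, 21.4% for Cd3e, 22.4% for Gzma, 22.3% for Gzmb and 24.1% for Ccl5. They were 49.6% for Cd3d, 52.8% for Cd4 and 55.1% for Cd8b1, the 3 markers with the fewest counts, beside a median of 19.7% over all tested genes. Among tested genes with a mean normalized count of 100 to 1000, as for Cd8a, Itgae, Cd3e, Gzma, Gzmb and Ccl5, the median was 13.6%. Each of these markers varied more than the median gene of its level. Outside the lists, the 5 genes whose profile was most like that of the 10 markers, out of 12943 compared, were Mctp2 (r = 0.97), Mbtps2 (r = 0.94), Tstd3 (r = 0.94), Nabp2 (r = 0.93) and Fbxw11 (r = 0.93). They were found by search over these same 8 libraries.

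Of 15 tested genes of the T cell receptor and its signalling, 0 passed the adjusted threshold in DESeq2, 1 (Cd2) had an unadjusted p below 0.05 (3.03% of all genes) and 13 had a log2 fold change above 0 (48.5% of all genes), with a median of 0.22. Without control 2, 9 of 13 tested genes were above 0. Trac, the constant region of the alpha chain, had normalized counts of 55.1 in controls and 66.7 in knockouts (log2 fold change 0.29). Trdc, the constant region of the delta chain of gamma delta T cells, had 100.3 and 102 (0.02). Cd247, the zeta chain of the receptor, had 26.1 and 34.7 (0.41), and Lck, the kinase bound to CD4 and CD8, had 100.04 and 108 (0.12). For Trac, Trdc, Cd247 and Lck the DESeq2 adjusted p was 0.9998.

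Cd2, an adhesion receptor of T cells and NK cells, had normalized counts of 3.63, 7.38, 10.5 and 3.87 in controls and 6.32, 15.5, 20.02 and 20.7 in knockouts. As with Cd4, knockouts 2, 3 and 4 exceeded every control and knockout 1 did not. The log2 fold change was 1.35 (standard error 0.60; DESeq2 adjusted p = 0.9998). Over the 12 other settings that tested Cd2 it ran from 0.51, with the macrophage and dendritic score in the model, to 1.65, and it passed the unadjusted threshold in 7. With the B cell score it was 0.86 and did not pass.

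Rearranged receptor genes are read from many segments, each with few counts, so the segments of each locus were summed. The alpha locus (189 genes) had 93.9, 122, 157 and 128 normalized counts in controls and 174, 118, 178 and 132 in knockouts. Knockouts 1 and 3 lay above all controls and the other 2 among them (log2 difference 0.26, exact permutation test, two-sided, p = 0.229, adjusted over 4 loci 0.743). The beta locus (53 genes) had 91.3 ± 34.9 and 93.2 ± 14.2 (SD, n = 4 each; exact permutation test, p = 0.714, adjusted 0.886). Its 2 constant genes are near-identical, so reads may be split between them.

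The delta locus (11 genes) had 81.8, 94.9, 119 and 149 in controls and 126, 79.4, 184 and 88.4 in knockouts. The knockouts held both the lowest and the highest value (log2 difference 0.06, exact permutation test, two-sided, p = 0.886, adjusted 0.886). The gamma locus, for which 5 genes were found by symbol, had 40.2 ± 13.3 and 53.9 ± 20.6 (SD, n = 4 each; log2 difference 0.38, exact permutation test, p = 0.371, adjusted 0.743). With 10 further genes that the annotation names Tcrg, added after the data were seen, it had 319 ± 67.6 and 352 ± 90.2 (exact permutation test, p = 0.657). No locus differed beyond the spread between libraries.

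**Figure D4:**
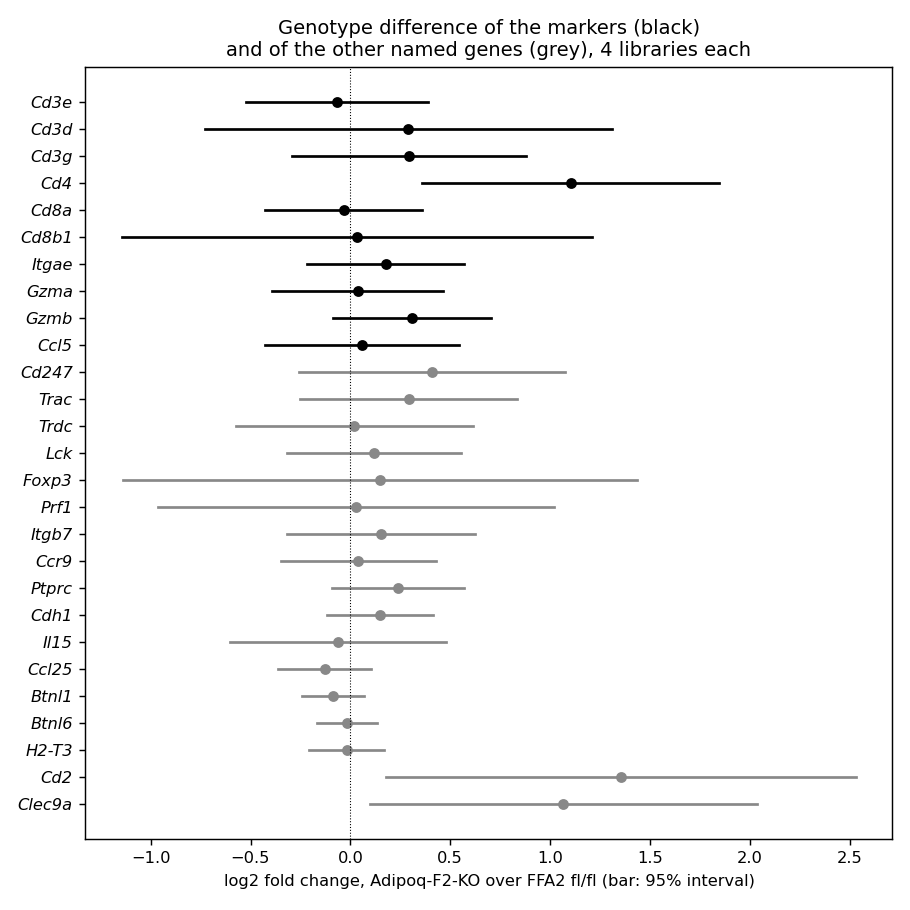
Log2 fold changes, Adipoq-F2-KO over floxed controls, of the 10 markers (black) and of 17 other named genes (grey), as points with 95% intervals (DESeq2, 4 libraries per genotype). The intervals of Cd4, Cd2 and Clec9a lie above 0 before adjustment, and those of the other 24 genes include 0.

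Among helper, regulatory and lineage genes, 7 of 16 were tested, 0 had an unadjusted p below 0.05 and 6 had a log2 fold change above 0, with a median of 0.28. Foxp3, the factor of regulatory T cells, had 6.97 normalized counts in controls and 8.40 in knockouts (log2 fold change 0.15, DESeq2 adjusted p = 0.9998), too few for a moderate difference to be detectable. Il17a, named after its values were seen, had no count in any library. Of 20 cytotoxic and NK receptor genes, 13 were tested, 0 passed even unadjusted, and 8 were above 0 with a median of 0.03. Prf1, which encodes the pore-forming perforin, had 12.6 and 12.3 normalized counts and a fitted log2 fold change of 0.03, opposite in sign to the difference of these means. Klrk1, the receptor NKG2D, had 1 to 10 raw counts and was not tested.

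Homing and residence genes guide lymphocytes into the gut wall and keep them there. Of 12 tested genes, 0 passed even the unadjusted threshold in DESeq2 and 9 were above 0, with a median of 0.17. Itga1, the most abundant of them, was highest in control 3 (1372 normalized counts) and knockout 4 (773), which also had the highest smooth muscle sums. The cells behind its counts were not determined. Itgb7, the beta chain that partners CD103, had 86.3 and 94.8 normalized counts (log2 fold change 0.15). Ccr9, the receptor for the small intestinal chemokine CCL25, had 93.4 and 97.5 (0.04), and it overlaps Slc6a20a on the opposite strand. For Itgb7 and Ccr9 the DESeq2 adjusted p was 0.9998.

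Clec9a, a marker of cross-presenting dendritic cells, was the only tested gene of the other cell type lists past the unadjusted threshold. It had 7.15 ± 1.55 and 15.8 ± 4.27 (SD, n = 4 each), without overlap between genotypes, as held for 2.12% of all genes (log2 fold change 1.07, DESeq2 adjusted p = 0.9998). It held 3 to 26 raw counts per library, passed the unadjusted threshold in 7 of 17 other settings, and had log2 fold changes from 0.68 to 1.25 over them. It overlaps Clec1b on the same strand.

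On the epithelial side, 18 genes whose products hold, feed or select intraepithelial lymphocytes were tested. Of these, 0 passed even the unadjusted threshold in DESeq2, 10 were above 0 and the median log2 fold change was 0.15. Cdh1, which encodes E-cadherin, the ligand of CD103, had 10404 and 11509 normalized counts in controls and knockouts (0.15). Il15, a survival factor of these cells, had 469 and 450 (−0.06), and Ccl25 had 2216 and 2029 (−0.13). The butyrophilin-like genes Btnl1 (5269 and 4961, −0.09) and Btnl6 (4912 and 4852, −0.02), which maintain gamma delta cells in the small intestine, belong to a family of similar genes and their counts are uncertain to that extent. H2-T3, which encodes the ligand of the CD8 alpha pair, had 1916 and 1900 (−0.02). For Cdh1, Il15, Ccl25, Btnl1, Btnl6 and H2-T3 the DESeq2 adjusted p was 0.9998.

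Among all leukocytes, 10 of 10 genes were tested, 0 passed even unadjusted and 8 were above 0, with a median of 0.32. Ptprc, which encodes CD45, had 857 ± 185 normalized counts in controls and 1010 ± 60.0 in knockouts (SD, n = 4 each; log2 fold change 0.24, DESeq2 adjusted p = 0.9998). The other cell type lists had medians of 0.17 for plasma cells (5 of 6 tested genes above 0), 0.28 for mast cells (2 of 2), −0.02 for enterocytes (4 of 10) and −0.89 for smooth muscle (0 of 10). In none of these 4 did a gene pass the unadjusted threshold. The 2 tested mast cell genes were Mcpt1 (log2 fold change 0.55) and Kit (0.005), so their median is not a readout of mast cells as a whole. Kit was highest in control 3 (230 normalized counts) and knockout 4 (199), as was the smooth muscle sum, and its source was not tested. The direction of the smooth muscle genes depended on control 3 and on the model. Without control 3, 9 of 10 were above 0 and the median was 1.15. With control 3 kept, 8 of 10 were above 0 in limma-voom and also in DESeq2 with the replicate number as a block. Sdc1, an entry of the plasma cell list named after its values were seen, lay at 270 to 283 normalized counts in controls and 284 to 334 in knockouts (log2 fold change 0.19, DESeq2 adjusted p = 0.9998). Over the libraries Sdc1 varied 1.24-fold and the plasma cell sum 2.18-fold. Whether the Sdc1 counts came from plasma cells was not tested. Sdc1 and Clec9a were the 2 tested genes of all lists without overlap between genotypes, as held for 2.12% of all genes.

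**Figure D5:**
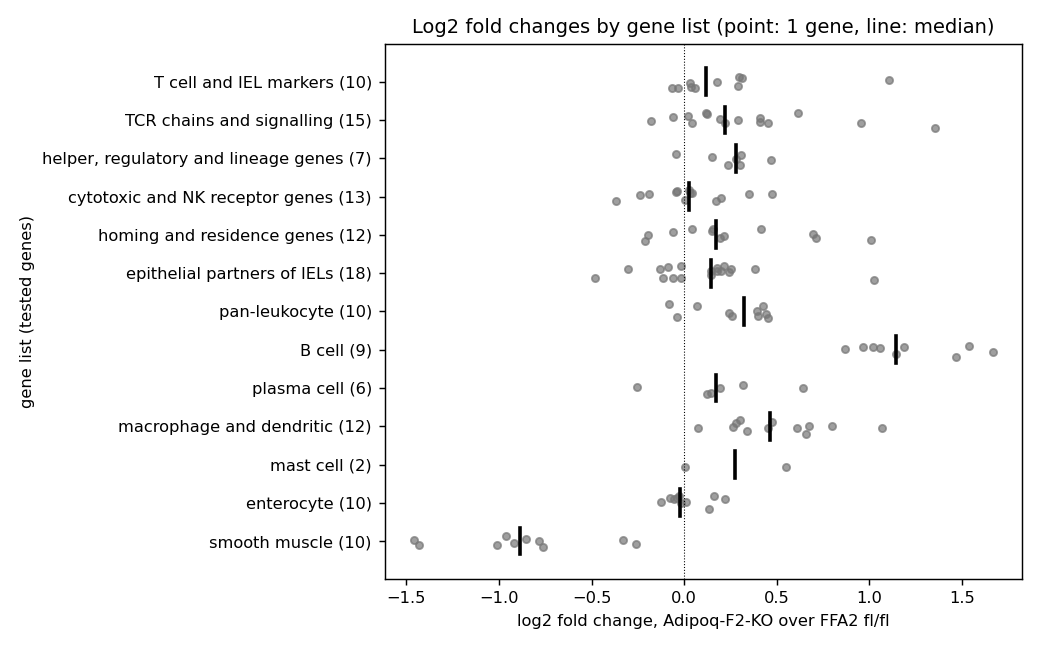
Log2 fold changes (Adipoq-F2-KO over floxed controls) of each tested gene by list, with the number tested in parentheses and a black line at the median. The medians of the T cell lists are 0.12 for the 10 markers, 0.22 for receptor and signalling genes, 0.28 for helper, regulatory and lineage genes, 0.03 for cytotoxic genes and 0.17 for homing genes. B cell genes lie wholly above 0 (median 1.15) while smooth muscle genes lie wholly below (median −0.89) in this fit. Without floxed control 3 the smooth muscle genes lie mostly above (9 of 10, median 1.15), and with it they do so in limma-voom (8 of 10). In DESeq2, 0 genes in any list passed the adjusted threshold.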

How the data were processed

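Polyadenylated RNA was sequenced from one end over 75 bp with a stranded kit. Per the labels and the study's methods, the authors trimmed reads with Trimmomatic, aligned them with STAR and summarised them by Ensembl gene in featureCounts. Deposited were raw counts, unscaled, for each library. The submitters' processing notes name GRCm38 and mm10, while software versions and the strand setting are not given in the sources used here. Symbols and gene positions came from GENCODE M21 (52125 of 56980 identifiers matched, and 2147 identifiers belong to a newer release). Of the receptor and epithelial list entries, 3 gamma constant genes were not matched, and 1 entry whose symbol belongs to another gene was left out. For 1 homing gene, values are not reported here and it does not enter the counts.

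DESeq2 1.42.0 (R 4.3.3) was fitted to all 8 libraries with genotype as the only term, on the 15986 genes that reached 10 counts in 4 or more libraries. Wald tests were two-sided, and p-values were adjusted by Benjamini-Hochberg (BH) over all these genes, of which 8 had no adjusted p. Normalized counts are counts divided by DESeq2 size factors. edgeR 4.0.16 and limma 3.58.1 (voom) were alternatives, as were TMM factors, other filters, a replicate block, covariates, the deep libraries and leaving out each library. Ratios used a pseudocount of 0.5 and locus sums one of 1, with exact permutation tests and BH adjustment. List scores are mean centred log2 values. The markers and lists were chosen with earlier results of these data known. Apart from the markers, genes were named by a rule: up to 3 per list with the smallest unadjusted p below 0.05, 16 genes whatever their values, and the 5 of most similar profile. Runx3, Il17a, Sdc1, Mcpt1, Kit and Itga1 fall outside the rule and were named after their values were seen. The fit and the permutation test were first tested on simulated data. Reads carried no molecular identifiers, so errors cover counting and the spread between libraries. Within each genotype, pairs of libraries differed by a chi-square of 5.04 to 56.6 per gene, so none was a duplicate.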

Additional observations from a re-analysis of the deposited data

Results flagged for a closer look

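In floxed control 3, the normalized count of Cd3d was 33.5, while the other 3 controls lay between 11.6 and 15.1. The gap was 0.838 of the range of the 4 controls, above the critical value at 95% by Dixon's criterion. This was 1 of 76 groups of 4 values examined, of which chance alone would mark about 3.8. The raw count behind it was 16 in a shallow library with the highest smooth muscle sum, and the part of either was not tested.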

How the results depend on the processing

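Under all 18 alternatives, 16 planned and 2 added, 0 of the tested markers passed the adjusted threshold. Markers with an unadjusted p below 0.05 numbered 0 with the B cell score or the macrophage and dendritic score as a covariate and 2 (Gzmb and Ccl5) in the deep libraries (5.7% of all genes), and 1 to 2 when single libraries were left out, the second being Gzmb without floxed control 3 (8.29% of all genes) or without knockout 4 (2.3%). Markers without overlap numbered 3 in the deep libraries, where 23.6% of all genes did not overlap, and 0 to 1 when single libraries were left out (Cd4 without floxed control 2, 4.18% of all genes, or knockout 1, 4.44%). Cd3d and Cd8b1 were not tested when 10 counts were required in all 8 libraries.

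For the named genes, signs turned at values that no test passed. In the deep libraries the log2 fold change was 0.094 for Cd3e, 0.029 for Cd8a, −0.14 for Trdc, −0.24 for Foxp3, −0.022 for Ccr9, 0.041 for Il15 and 0.008 for Btnl6, and the delta locus differed by −0.071. With limma-voom it was 0.02 for Cd3e, −0.063 for Trdc and −0.0027 for Foxp3. With the B cell score it was 0.093 for Cd3e, 0.12 for Cd8a, −0.16 for Foxp3, −0.16 for Prf1, 0.031 for Il15 and 0.0064 for Ccl25. With the macrophage and dendritic score it was 0.071 for Cd3e, 0.026 for Cd8a, −0.14 for Foxp3, −0.12 for Prf1, 0.14 for Il15 and 0.0063 for Ccl25. With the smooth muscle score Il15 was at 0.0048. The causes were not tested.

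Leaving out single libraries gave −0.20 to 0.073 for Cd3e, −0.13 to 0.10 for Cd8a, −0.27 to 0.53 for Cd8b1, −0.11 to 0.20 for Gzma, −0.059 to 0.27 for Ccl5, −0.25 to 0.19 for Trdc, −0.061 to 0.46 for Foxp3, −0.25 to 0.22 for Prf1, −0.0088 to 0.25 for Itgb7, −0.038 to 0.12 for Ccr9, −0.26 to 0.18 for Il15, −0.061 to 0.0039 for Btnl6 and −0.078 to 0.027 for H2-T3. It gave −0.098 to 0.26 for the log2 ratio of Ccl5 to Cd3e, −0.060 to 0.31 for the beta locus and −0.17 to 0.23 for the delta locus. Without a change of sign, it gave 0.069 to 0.67 for Cd3d, 0.13 to 0.50 for Cd3g, 0.029 to 0.28 for Itgae, 0.17 to 0.44 for Gzmb, 0.24 to 0.54 for Cd247, 0.11 to 0.39 for Trac, 0.017 to 0.25 for Lck, 0.094 to 0.32 for Ptprc, 0.060 to 0.23 for Cdh1, −0.20 to −0.065 for Ccl25 and −0.14 to −0.064 for Btnl1. The log2 ratio was 0.033 to 0.62 for Cd8b1 to Cd8a, 0.11 to 0.29 for Itgae to Cd3e and 0.027 to 0.18 for Gzma to Cd3e, and the alpha and gamma loci differed by 0.14 to 0.38 and 0.18 to 0.68. In all, 58 of 467 values for 27 tested genes changed sign, and the other 409 kept their sign and stayed on the same side of the adjusted threshold. At the unadjusted threshold 23 values changed side, 10 of Clec9a, 5 of Cd2, 3 each of Cd4 and Gzmb and 1 each of Ccl5 and Cdh1.

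The medians of the lists were recomputed under each setting after the data were seen. The smooth muscle median of −0.89 turned to 1.15 without floxed control 3, 0.89 with limma-voom, 0.57 with the replicate block, 0.45 in the deep libraries and 0.02 with its own score as a covariate. Leaving out single libraries gave medians of −0.11 to 0.10 for cytotoxic genes, 0.06 to 0.36 for receptor and signalling genes, 0.17 to 0.39 for helper, regulatory and lineage genes, 0.05 to 0.18 for epithelial partners, 0.06 to 0.35 for homing genes, 0.21 to 0.44 for all leukocytes, 0.33 to 0.73 for macrophage and dendritic genes 0.77 to 2.99 for B cell genes, 0.06 to 0.37 for plasma cells, −0.09 to 0.43 for mast cells (1 or 2 genes) and −0.06 to 0.03 for enterocytes. With the B cell score and the macrophage and dendritic score in the model, in that order, the median was 0.31 and 0.27 for the 10 markers, 0.27 and 0.26 for receptor and signalling genes, 0.19 and 0.10 for helper, regulatory and lineage genes, 0.13 and 0.07 for cytotoxic genes, 0.06 and 0.12 for homing genes, 0.02 and 0.03 for epithelial partners, 0.06 and 0.10 for all leukocytes and −0.06 and −0.10 for plasma cells. In the deep libraries it was 0.32 for the 10 markers, 0.07 for cytotoxic genes, 0.55 for mast cells and 0.03 for helper, regulatory and lineage genes.

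With the replicate number as a block, Cd4 had a log2 fold change of 1.10 (DESeq2 adjusted p = 0.948), Trdc was at −0.022 and 0 markers passed. Same-numbered libraries correlated at 0.54, 0.29, 0.01 and −0.42 in their deviations from the group means. The best match had the same number for controls 1 and 2 but not for controls 3 and 4. Whether any libraries were paired cannot be told from these values. Depth limits Cd3d, Cd8b1 and Cd4 most, with 3 to 37, 6 to 30 and 12 to 112 raw counts per library.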
